A study of Mus musculus with 2 samples.

Results

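Activated mature neutrophils of the lung, selected on their own transcript counts, were described in 2 single-cell libraries from BALB/c mice bearing 4T1 mammary tumours. A barcode was taken when it had at least 200 genes and at most 15% mitochondrial UMIs (unique molecular identifiers, each counted as 1 captured transcript), at least 2% of its UMIs from S100a8 and S100a9, at least 1 UMI of Csf3r, under 0.1% of its UMIs from the granule precursor genes Camp, Ngp and Ltf, and no UMI of Cdh5, Cd79a, Cd3e or C1qa. These steps left 4354 mature neutrophils, 1979 in the S100A4-11 library and 2375 in the IgG library. Those with more UMIs of Ccrl2, Ptgs2 and Marcksl1 together than of Retnlg, Mmp8 and Prok2 together formed the activated cells, 2849 of the 26917 deposited barcodes: 1315 in the S100A4-11 library and 1534 in the IgG library. The remaining 664 and 841 mature neutrophils are called resting, a name that stands for failing this last step and nothing more.

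The S100A4-11 library came from lungs of mice given the S100A4-11 antibody, and the IgG library from lungs of mice given an IgG antibody. Both sets of mice were BALB/c and carried 4T1 cells, a mouse mammary carcinoma line, placed in the mammary fat pad, and lungs were taken 14 days later. Ages, antibody doses, the number of animals behind each library and what the S100A4-11 antibody binds are not given in the sources used here. The protocol text in the labels speaks of tumour tissue, while title, source and tissue labels say lung. With 1 library per treatment there was no replicate error, so no test between treatments was possible; every interval below is an exact 95% interval for counting error only.

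Mature neutrophils arrive in tissue with preformed granules and can be switched on by microbial products, cytokines and damage signals, largely through NF-kB and AP-1. Switched-on cells transcribe chemokines, interleukin-1 family cytokines and the feedback inhibitors that end the response, and lose part of the granule and maturation transcripts of fresh blood neutrophils. In mice with mammary tumours, neutrophils gather in the lung before and during metastasis. Ccrl2 encodes an atypical chemerin receptor, Ptgs2 the inducible cyclooxygenase of prostaglandin synthesis and Marcksl1 an actin-regulating MARCKS-related protein. Retnlg (a resistin-like secreted protein), Mmp8 (neutrophil collagenase) and Prok2 (prokineticin, also called Bv8) mark freshly matured neutrophils.

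The members were shallower than the resting cells. Activated cells had a median of 3472 UMIs and 1040 genes in the S100A4-11 library and 3650 UMIs and 1080 genes in the IgG library, and resting cells had medians of 5287 and 5516 UMIs. The deposited matrices held 64695542 UMIs in 12506 S100A4-11 barcodes and 85458143 UMIs in 14411 IgG barcodes. The libraries shared 266 barcode sequences, 8 of them among mature neutrophils and none among activated cells. A doublet caller (Scrublet) marked 51 activated cells (3.88%) in the S100A4-11 library and 80 (5.22%) in the IgG library; they were kept, and left out as an alternative. The step on Cdh5, an endothelial gene, removed 7.59% of the S100A4-11 and 10.5% of the IgG neutrophils that had passed the earlier steps.

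The share of activated cells did not differ between the libraries beyond counting error. Activated cells made up 66.4% of mature neutrophils (64.3% to 68.5%) in the S100A4-11 library and 64.6% (62.6% to 66.5%) in the IgG library, a ratio of 1.03 (0.955 to 1.11). Of all barcodes past the gene and mitochondrial filters they made up 10.6% in the S100A4-11 library and 10.7% in the IgG library, a ratio of 0.990 (0.919 to 1.07). The ratio intervals treat the activated cells as counts over fixed totals, which makes them wider than intervals for a ratio of shares. They are thus not the limit of detection, and a small difference may have gone unseen with this number of cells.

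The last step set the contrast in the genes it used, which is given as a description. The upper sum (Ccrl2, Ptgs2 and Marcksl1) had a median of 31 UMIs per activated cell in the S100A4-11 library and 28 in the IgG library, against a median of 8 and 7 UMIs in resting cells. The lower sum (Retnlg, Mmp8 and Prok2) had a median of 2 UMIs in activated cells of both libraries, against 43 and 42 in resting cells. All 3 upper genes were seen in 73.3% of S100A4-11 and 70.9% of IgG activated cells, and 28.7% and 30.1% of them had no UMI of any lower gene. Few cells lay at the boundary: 52 activated cells (3.95%) in the S100A4-11 library and 77 (5.02%) in the IgG library had sums that differed by 2 or less, as did 70 (10.5%) and 109 (13%) of the resting cells. Just inside the boundary the median sums were 6 against 4 UMIs (S100A4-11) and 5 against 3 UMIs (IgG), and just outside it 8.5 against 10 and 8 against 9.

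Levels below are UMIs summed over the cells of a library and state, per 1000000 UMIs of those cells (CPM). Ccrl2 (chr9:111054486-111057519, minus strand, GRCm38) had 5094 CPM in S100A4-11 and 4724 CPM in IgG activated cells, against 948 and 856 CPM in resting cells. Ptgs2 (chr1:150100031-150108227, plus strand) had 1826 and 1396 CPM in activated cells, against 504 and 355 CPM in resting cells. Marcksl1 (chr4:129513581-129515985, plus strand) had 2523 and 2226 CPM in activated cells, against 675 and 577 CPM in resting cells. All 3 were thus present in resting cells too, at a lower level. On the other side, Retnlg had 1095 and 979 CPM in activated cells, against 9962 and 9726 CPM in resting cells.

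Each rule gene was also read with the split made by the other 5 genes, so that its own counts played no part in it. Ccrl2 was then 3.38-fold higher in activated than resting cells of the S100A4-11 library and 3.17-fold higher in those of the IgG library. The same ratio was 2.73 and 3.02 for Ptgs2 and 2.98 in both libraries for Marcksl1. For Retnlg it was 0.258 and 0.247, for Mmp8 0.213 and 0.205, and for Prok2 0.143 and 0.149. The 6 genes kept their sides when left out singly. The other 5 were chosen for the same contrast and come from the same cells, so this describes the division and supports nothing beyond it. The groups also changed with the gene left out. Activated cells numbered from 1102 without Ccrl2 to 1733 without Retnlg in the S100A4-11 library, and from 1251 to 2045 in the IgG library.

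Il1rn (chr2:24336853-24351494, plus strand), which encodes the interleukin-1 receptor antagonist, is the label's marker that the rule did not use. It had 2374 CPM (2332 to 2417) in S100A4-11 and 2079 CPM (2043 to 2114) in IgG activated cells, against 847 and 804 CPM in resting cells. After every cell was thinned to 1000 UMIs, 68.8% of S100A4-11 and 64.4% of IgG activated cells held an Il1rn UMI, against 41.6% and 43.1% of resting cells. In Cd79a-positive, Csf3r-negative barcodes, which should lack it, the share was 0.42% (S100A4-11; median depth 2939 UMIs) and 0.54% (IgG; 3043 UMIs). A set of 13 neutrophil markers outside the rule summed to 32611 and 32178 CPM in activated cells and to 5217 and 5333 CPM over all other barcodes, with no marker at 0. A set of 9 activation markers outside the rule summed to 35573 and 34046 CPM in activated cells, against 19990 and 19872 CPM in resting cells. The sum of the activation set was thus higher in activated than in resting cells, while the neutrophil set lay at a similar level in resting cells (33468 and 32606 CPM). Most of the activation sum came from Cxcl2 and Nfkbia, whose levels are given below. Its member Ccl4 went the other way in thinned shares, with 14.5% (S100A4-11) and 15.3% (IgG) of activated cells, against 18.4% and 20.7% of resting cells. Thinned shares of Il1rn, Icam1, Il1a, Ccl3, Cxcl2, Tnf and Cd274 were higher in activated cells of both libraries.

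**Figure D1:**
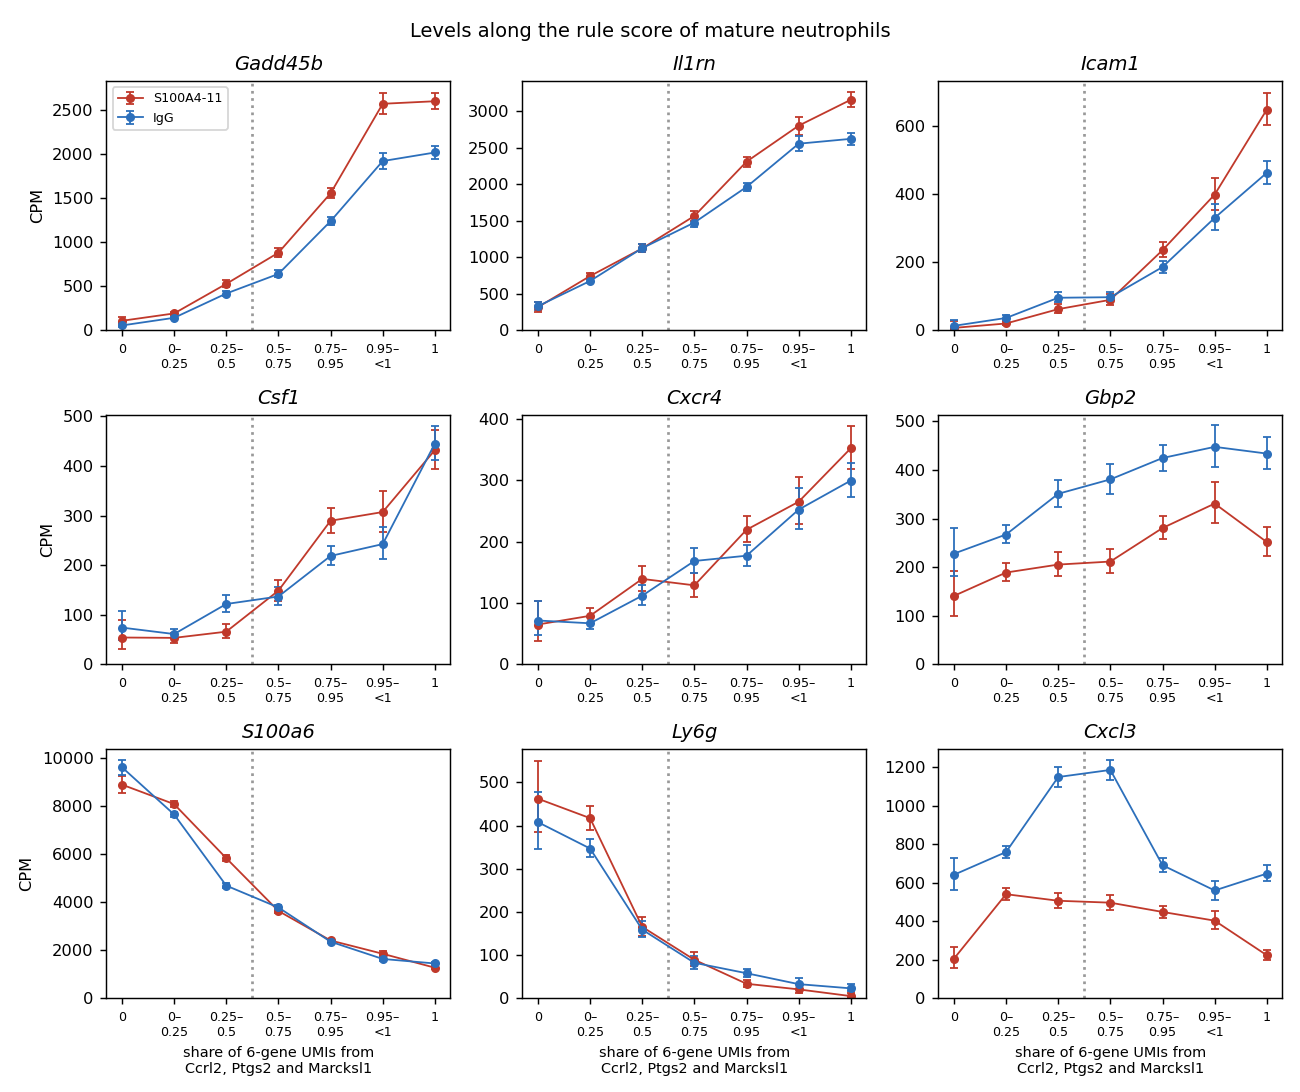
Level in CPM (y axes) of 9 genes in mature neutrophils of the S100A4-11 (red) and IgG (blue) libraries, in 7 bins of the share of a cell's UMIs over the 6 rule genes that came from Ccrl2, Ptgs2 and Marcksl1 (x axes). Points are summed levels, bars 95% counting intervals, and the dotted line lies between resting (left) and activated cells; Gadd45b, Il1rn, Icam1, Csf1 and Cxcr4 are higher in the last bin than in the first, S100a6 and Ly6g lower, and Gbp2 and Cxcl3 lie lower in the S100A4-11 library in every bin.

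The members were not uniform. Cells were binned by the share of their 6-gene UMIs that came from the upper genes, and levels changed in steps across the boundary rather than at it, as the plot of levels along the rule score shows. Among activated cells, Il1rn had 1566 CPM in the bin just past the boundary (272 cells) and 3158 CPM in cells with no lower-gene UMI (378 cells) of the S100A4-11 library, and 1476 and 2623 CPM in the same bins of the IgG library. Icam1, the endothelial and leukocyte adhesion ligand of beta-2 integrins, had 89.5 and 647 CPM in those bins of the S100A4-11 library and 97.1 and 462 CPM in the IgG library. Cxcr4, the CXCL12 receptor of ageing and marrow-homing neutrophils, had 129 and 352 CPM in the S100A4-11 library and 169 and 300 CPM in the IgG library. Ly6g, the surface marker of mouse neutrophils, had 89.5 and 5.4 CPM in the S100A4-11 library and 82.5 and 23.3 CPM in the IgG library. Cxcr2, the receptor for CXCL1, CXCL2 and related chemokines, differed less along the 7 bins, with levels between 544 and 730 CPM in S100A4-11 cells and between 571 and 747 CPM in IgG cells. Median depth differed along the same bins, with 4898 UMIs in the first S100A4-11 bin and 4695 in the first IgG bin. It was highest in the bin after the first, at 5504.5 and 6231 UMIs, and lowest in the last, at 2812 and 3001. The part of depth in the order was not tested.

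Activated over resting cells, 421 of 4163 genes with enough counts (10.1%) were at least 1.5-fold higher in both libraries and 136 (3.27%) at least 1.5-fold lower. The cells were divided by their own transcripts, so these counts describe the division and support nothing beyond it. The median log2 ratio over all genes was 0.16 in the S100A4-11 library and 0.15 in the IgG library, the level to read the list medians against. The split moved with scaling: median-of-ratios scaling gave 205 higher and 263 lower genes with medians of -0.06 and -0.03, and TMM scaling 229 and 246. S100a8 and S100a9, the abundant calprotectin genes, had 30200 and 61659 CPM in S100A4-11 and 30974 and 62087 CPM in IgG activated cells, against 67994 and 91696 CPM in S100A4-11 and 64719 and 89051 CPM in IgG resting cells.

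NF-kB targets and feedback inhibitors were higher in activated cells. The rule genes are left out of the counts of activated over resting cells. Of 25 measured genes of this list, 18 were at least 1.5-fold higher in activated than resting cells in both libraries and none lower, with a median log2 ratio of 0.98 in the S100A4-11 library and 0.96 in the IgG library. Gadd45b (chr10:80930073-80932204, plus strand), a stress-induced regulator of MAP kinase signalling, had 1752 CPM in S100A4-11 and 1364 CPM in IgG activated cells, against 305 and 230 CPM in resting cells. That is 5.74-fold (5.40 to 6.12) and 5.94-fold (5.59 to 6.32) higher. Icam1 had 312 and 249 CPM in activated cells, against 34.2 and 54.5 CPM in resting cells, or 9.11-fold and 4.56-fold. Nfkbia, which encodes the inhibitor that returns NF-kB to the cytoplasm, had 6263 and 5823 CPM in activated cells, against 2278 and 2304 CPM in resting cells. Tnfaip3, the ubiquitin-editing enzyme A20, was 3.34-fold and 3.36-fold higher, and Nfkbid, a nuclear I-kB protein, 2.81-fold and 2.86-fold. Plaur, the urokinase receptor, was the only measured gene of the list with ratios under 1 in both libraries, and had 2236 and 2463 CPM in activated cells, against 3089 and 2887 CPM in resting cells.

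Cytokines followed. Of 20 measured genes, 12 were past 1.5-fold higher and 1 lower, with medians of 1.07 and 0.76 on the log2 scale; the lower one was Thbs1, the matrix glycoprotein thrombospondin-1 (46.8 and 56.6 CPM in activated cells, against 91.9 and 130 CPM in resting cells). Il1a, an alarmin cytokine, had 430 CPM in S100A4-11 and 338 CPM in IgG activated cells, against 100 and 117 CPM in resting cells. Csf1, the macrophage growth factor, had 287 and 254 CPM in activated cells, against 58.0 and 86.2 CPM in resting cells. Il23a, a subunit of interleukin-23, had 66.1 and 42.9 CPM in activated cells, against 10.7 and 8.06 CPM in resting cells. Il1b, the secreted pyrogenic cytokine, was among the most abundant transcripts of both states, with 28183 and 24105 CPM in activated cells, against 16615 and 14071 CPM in resting cells. At 1000 UMIs per cell an Il1a UMI was found in 16.8% of S100A4-11 and 14.8% of IgG activated cells (24.6% and 24.3% unthinned), against 7.24% and 6.22% of resting cells and 0.555% and 0.214% of the Cd79a-positive, Csf3r-negative barcodes.

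Among 8 measured chemokines, 3 were past 1.5-fold higher and none lower, with median log2 ratios of 0.19 (S100A4-11) and 0.43 (IgG). Over all genes 10.1% were higher, with medians of 0.16 and 0.15. Cxcl2, the main neutrophil-attracting chemokine of these cells, had 24524 and 23826 CPM in activated cells, against 15557 and 15270 CPM in resting cells. Cxcl1, its close relative, had 194 and 205 CPM in activated cells, against 42.7 and 50.3 CPM in resting cells. Ccl3, a ligand of CCR1, had 429 and 385 CPM in activated cells, against 215 and 173 CPM in resting cells. Cxcl3 and Ccl4 went the other way in thinned shares. A Cxcl3 UMI was found in 10.5% and 16.6% of activated cells, against 13.4% and 21.7% of resting cells. For Ccl4 the shares were 14.5% and 15.3%, against 18.4% and 20.7%. Immediate early and heat shock genes had 17 of 35 past 1.5-fold higher and none lower. Among them Dusp2, a nuclear phosphatase of MAP kinases, was 3.40-fold and 4.05-fold higher, Zfp36, which destabilises cytokine transcripts, 2.61-fold and 2.53-fold, Ppp1r15a, which reverses the translation block of the stress response, 3.27-fold and 2.98-fold, and the nuclear receptor Nr4a1 2.61-fold and 2.70-fold. Of 10 interleukin-1 and inflammasome genes, 5 were past 1.5-fold higher, among them the inflammasome sensor Nlrp3 (1946 and 1621 CPM, against 802 and 700 CPM in resting cells).

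**Figure D2:**
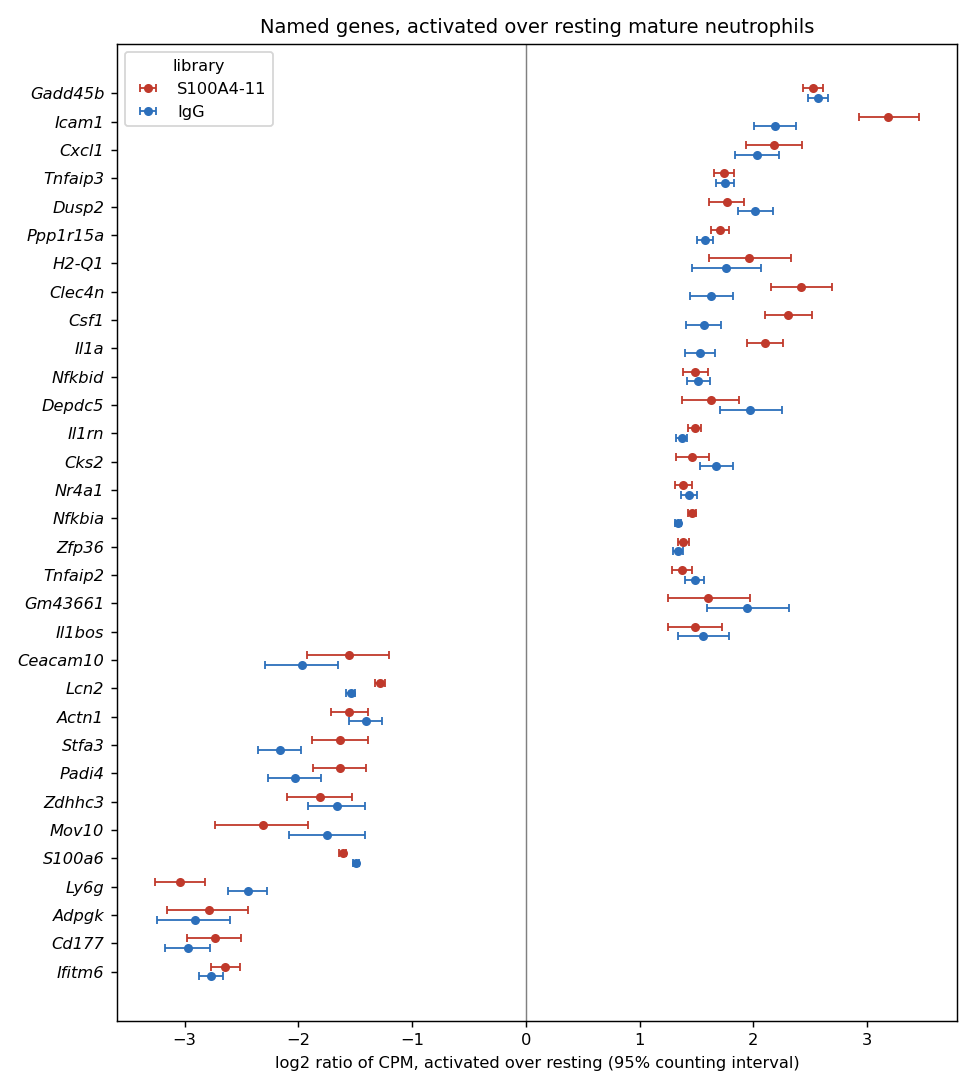
log2 ratio of CPM, activated over resting cells (x axis), of the 20 genes with the highest and the 12 with the lowest ratios by the naming rule (y axis), in the S100A4-11 (red, upper) and IgG (blue, lower) libraries, with 95% counting intervals. Gadd45b lies at 5.74-fold and 5.94-fold, Icam1 differs most between the libraries on the log2 scale (9.11-fold and 4.56-fold), and Ifitm6, Cd177, Adpgk and Ly6g lie lowest, at ratios of 0.122 to 0.183 in both.

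Granule and maturation genes had the lowest medians of the 20 lists, with 13 of 23 past 1.5-fold lower, none higher, and medians of -0.75 and -0.67. Cd177, the neutrophil surface glycoprotein stored in specific granules, had 35.7 CPM in S100A4-11 and 38.0 CPM in IgG activated cells, against 238 and 298 CPM in resting cells. Ly6g had 40.3 and 52.7 CPM in activated cells, against 331 and 287 CPM in resting cells. Lcn2, an iron-withholding granule protein, had 1236 and 1141 CPM in activated cells, against 3011 and 3319 CPM in resting cells. Padi4, the histone-citrullinating enzyme of neutrophil extracellular traps, had 44.0 and 31.5 CPM in activated cells, against 137 and 129 CPM in resting cells. Ifitm6, an interferon-induced transmembrane family gene, had 122 and 132 CPM in activated cells, against 759 and 898 CPM in resting cells. The named genes also held Stfa3, a stefin with near-identical copies whose reads cannot be assigned with certainty (ratios 0.322 and 0.223). Among the genes named as higher, H2-Q1 (3.89-fold and 3.38-fold) has near-identical relatives and Il1bos (2.80-fold and 2.95-fold) is antisense to Il1b, so both are uncertain.

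Glycolysis and hypoxia genes leaned lower in the members: 5 of 23 were past 1.5-fold lower, none higher, and the medians were -0.38 and -0.29. Gapdh had 321 and 339 CPM in activated cells, against 689 and 642 CPM in resting cells, and the lactate dehydrogenase gene Ldha had 383 and 416 CPM, against 593 and 671 CPM. The interferon-gamma list had 6 of 19 genes past 1.5-fold higher and none lower, with medians of 0.54 and 0.59, and the survival list 8 of 20 higher and none lower. Birc3, an inhibitor of apoptosis that also modulates NF-kB, was 2.37-fold and 2.30-fold higher. Bcl2a1b and Bcl2a1d are near-identical copies, so their ratios (2.87 and 2.40, and 2.78 and 3.61) are uncertain. Receptors of chemotaxis and adhesion had 4 of 21 higher and none lower, beside 10.1% and 3.27% of all genes. Their medians of 0.08 and 0.003 lay below those of all genes (0.16 and 0.15), so the list as a whole was not raised. Among the higher genes were Icam1 and Cxcr4 (232 and 215 CPM in activated cells, against 99.6 and 82.7 CPM in resting cells).

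Promoters of members that moved together were read for a kB-like motif (GGGA and TTCC with any 2 bases between them, on either strand) in 300-base windows from RefSeq (250 bases before to 50 after the start, GRCm38.p6). Of the 20 genes named as higher, 17 had a promoter in the table and 3 of them (17.6%) held the motif, namely Csf1, Cxcl1 and Nfkbia, against 1.63% of all 27025 genes with a promoter (1.47% of 32851 promoters). Of 21 genes of the NF-kB list with a promoter, 2 (9.52%) held the motif. None of the 12 genes named as lower held it. Neither did Ccrl2, Ptgs2, Marcksl1 or Gadd45b in this window, which says nothing on binding elsewhere. Sites with other letters inside the window were not counted, so these shares are of this pattern only. These 3 promoters are shown, 5′ to 3′ on the strand of the gene, with the match in capitals; in Cxcl1 matches on both strands overlap. They lie at chr12:55492598-55492897 (minus strand), chr5:90890995-90891294 (plus strand) and chr3:107760420-107760719 (minus strand).
Nfkbia: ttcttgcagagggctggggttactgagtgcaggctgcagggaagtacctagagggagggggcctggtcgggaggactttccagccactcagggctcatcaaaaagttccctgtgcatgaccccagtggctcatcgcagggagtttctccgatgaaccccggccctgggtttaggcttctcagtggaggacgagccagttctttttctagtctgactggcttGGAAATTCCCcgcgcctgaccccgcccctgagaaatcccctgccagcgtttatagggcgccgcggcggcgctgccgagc
Cxcl1: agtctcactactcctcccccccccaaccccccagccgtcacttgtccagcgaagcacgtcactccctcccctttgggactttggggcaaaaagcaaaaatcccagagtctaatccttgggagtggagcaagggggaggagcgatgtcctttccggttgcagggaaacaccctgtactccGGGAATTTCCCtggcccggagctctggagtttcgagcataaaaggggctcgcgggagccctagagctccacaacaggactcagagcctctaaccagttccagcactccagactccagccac
Csf1: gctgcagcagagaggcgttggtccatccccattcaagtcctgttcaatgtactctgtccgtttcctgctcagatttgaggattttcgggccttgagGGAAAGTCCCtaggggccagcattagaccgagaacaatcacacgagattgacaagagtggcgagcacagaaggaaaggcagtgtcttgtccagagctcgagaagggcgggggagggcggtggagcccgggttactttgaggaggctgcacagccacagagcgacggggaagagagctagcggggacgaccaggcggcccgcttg

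Between the libraries, 20 of 4041 genes tested (0.495%) were at least 1.5-fold higher in the S100A4-11 library and 157 (3.89%) at least 1.5-fold lower, around a median log2 ratio of -0.03. The split depended on the cells and the scaling: without cells that held 3 or more UMIs of markers of other lineages it was 37 higher and 43 lower, with median-of-ratios scaling 41 and 119, and with TMM scaling 38 and 120. Such marker-bearing cells made up 22.4% of the S100A4-11 and 44.2% of the IgG activated cells. The markers counted for this were those of endothelial cells, fibroblasts, alveolar epithelium, dendritic cells, B cells, T cells and NK cells. Markers of monocytes, macrophages, basophils or mast cells, eosinophils, platelets and erythroid cells were not counted.

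Interferon-induced genes were lower in the S100A4-11 library as a group, in activated and resting cells alike. Of all 4041 genes tested in activated cells, 1715 had ratios above 1. All 19 measured genes of the interferon-gamma and guanylate-binding protein list had ratios under 1 in activated cells (18 with TMM or median-of-ratios scaling), 6 of them at most 1/1.5, and their median log2 ratio was -0.45, against -0.03 for all genes. In resting cells the same median was -0.48, with 17 of the genes under 1. All 26 measured type I interferon genes also had ratios under 1 in activated cells (24 with either of those scalings), 5 of them at most 1/1.5, with a median of -0.23 in activated and -0.32 in resting cells. Activated and resting cells are separate cells of the same 2 libraries, so they are not independent samples of the treatments.

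Gbp2 (chr3:142620602-142638008, plus strand), a guanylate-binding GTPase of cell-autonomous immunity, had 263 CPM (249 to 278) in S100A4-11 and 419 CPM (403 to 435) in IgG activated cells, a ratio of 0.629 (0.588 to 0.672). In resting cells it had 191 and 293 CPM. Thinned to 1000 UMIs, 18.7% of S100A4-11 and 27.0% of IgG activated cells held a Gbp2 UMI, against 1.53% and 2.46% of the Cd79a-positive, Csf3r-negative barcodes. It was lower in the S100A4-11 library in each of the 7 bins of the rule score. The immunity-related GTPases Igtp (21.2 and 38.3 CPM) and Ifi47 (18.8 and 38.8 CPM), the related Gbp2b (34.1 and 57.4 CPM) and Gbp5 (12.3 and 24.1 CPM), and the immunoproteasome subunit Psmb10 (13.3 and 23.0 CPM) made up the other 5 past the fold. With TMM or median-of-ratios scaling Gbp2 had ratios of 0.671 and 0.674, short of 1/1.5, and the count was 5 of 19. Leaving out the cells with other-lineage markers left 6 of 19 at that fold and a median of -0.44. Irf1, an interferon-induced transcription factor, had 164 and 210 CPM.

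The promoter of Gbp2 (chr3:142620413-142620712, plus strand, GRCm38.p6) is shown because it held each of 3 motifs searched on both strands, in capitals: the kB-like motif, an AP-1 motif (TGANTCA) and an ISRE-like motif of interferon-stimulated promoters (GAAA, any 2 bases, GAAA). The ISRE-like motif was found in 4 of the 6 interferon-gamma genes past the fold (Gbp2, Gbp2b, Gbp5 and Igtp), against 3.99% of all genes with a promoter, and the kB-like motif in Gbp2 and Gbp5. The AP-1 motif was in 8.97% of all genes. It was in 3 of the 17 genes named as higher in activated than resting cells (17.6%) and in 2 of the 12 named as lower (16.7%).
Gbp2: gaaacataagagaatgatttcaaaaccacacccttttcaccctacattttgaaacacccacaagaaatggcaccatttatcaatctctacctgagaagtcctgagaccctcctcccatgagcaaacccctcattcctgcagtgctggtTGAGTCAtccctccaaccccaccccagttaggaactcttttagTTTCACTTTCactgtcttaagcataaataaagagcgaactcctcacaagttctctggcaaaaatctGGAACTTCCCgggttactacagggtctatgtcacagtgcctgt

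Type I interferon genes past the fold were expressed at low levels. They were the nucleic acid sensor Zbp1 (32.3 CPM in S100A4-11 and 54.2 CPM in IgG activated cells), Herc6 (15.9 and 30.6 CPM), Bst2 or tetherin (16.5 and 32.5 CPM), Cmpk2 (10.3 and 20.7 CPM) and Xaf1 (10.1 and 20.7 CPM). Without the cells that held other-lineage markers 1 of the 23 genes that then had enough counts was at that fold, and the median was -0.19; the ratios there were 0.530 for Herc6, 0.543 for Xaf1, 0.587 for Bst2, 0.685 for Zbp1 and 0.689 for Cmpk2, and some of these genes no longer had enough counts to enter. Abundant members were lower too, but short of the fold: Isg15 had 1764 and 1923 CPM, and Ifitm3, which blocks viral entry, 1133 and 1382 CPM. A pair of genes on this list, Mx1 and Mx2, was not analysed here.

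**Figure D3:**
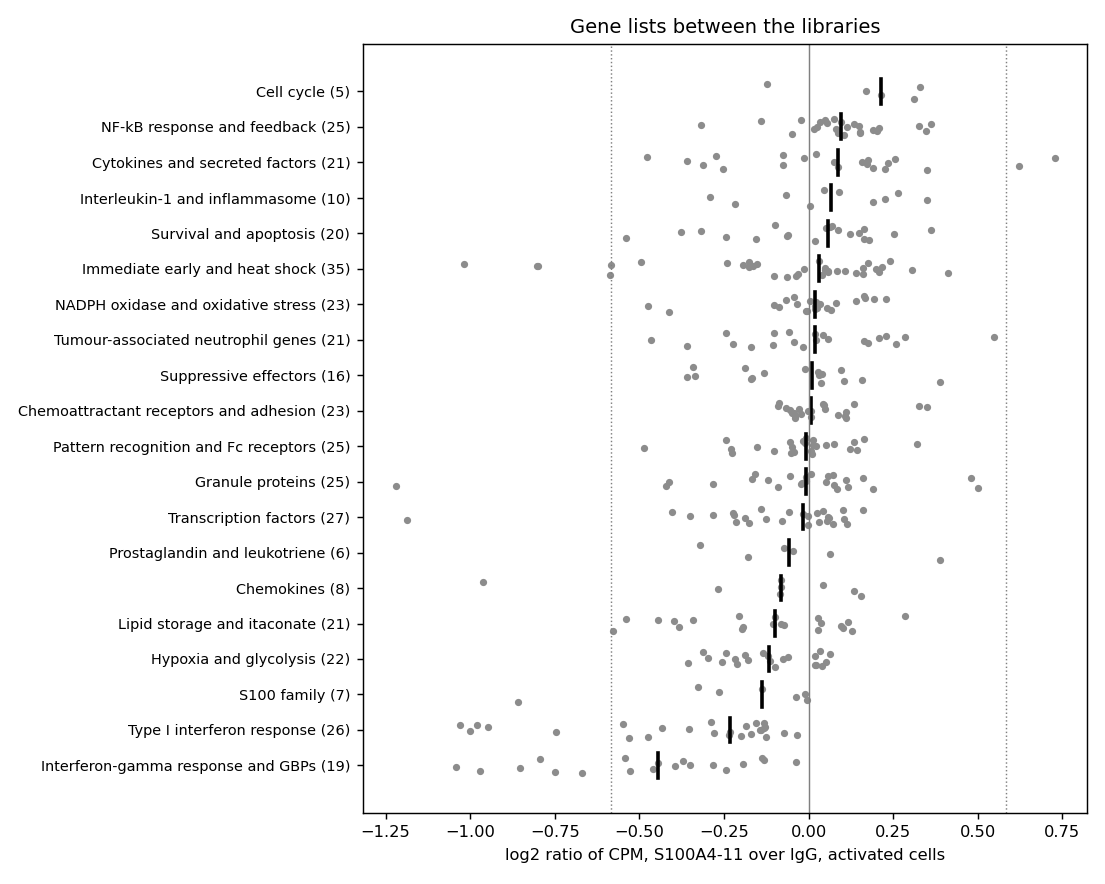
log2 ratio of CPM, S100A4-11 over IgG, in activated cells (x axis) for the measured genes of 20 lists (y axis, number of genes in brackets). Grey points are genes, black bars list medians and dotted lines the 1.5-fold bounds; the interferon lists lie lowest, with medians of -0.45 and -0.23, and all their genes are below 0 with this scaling by UMI totals (all but 1 and 2 with TMM or median-of-ratios scaling).

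Cxcl3 (chr5:90786103-90789600, plus strand), a CXCR2 ligand like Cxcl1 and Cxcl2, differed most of the 8 measured chemokines. It had 405 CPM (387 to 423) in S100A4-11 and 789 CPM (768 to 812) in IgG activated cells, a ratio of 0.513 (0.487 to 0.540). In resting cells it had 504 and 881 CPM, so it was lower in both states of the S100A4-11 library. A Cxcl3 UMI was found in 10.5% of S100A4-11 and 16.6% of IgG activated cells at 1000 UMIs per cell, against 0.14% and 0.11% of the Cd79a-positive, Csf3r-negative barcodes. Across the alternatives its ratio lay between 0.461 and 0.549. Cxcl2 (24524 and 23826 CPM) and Cxcl1 (194 and 205 CPM, ratio 0.945, 0.869 to 1.03) were close to even.

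NF-kB genes leaned the other way by small amounts: 21 of 25 had ratios above 1 in activated cells, none at 1.5 or more, with a median log2 ratio of 0.10. Over all genes 1715 of 4041 had ratios above 1. In resting cells the NF-kB median was 0.06, with 8 of the genes under 1. Gadd45b was 1.28-fold higher (1.25 to 1.32) in S100A4-11 than IgG activated cells and 1.33-fold higher in resting cells. Il1rn was 1.14-fold higher (1.11 to 1.17), Nlrp3 1.20-fold and Il1b 1.17-fold. The thinned shares went the same way, with Gadd45b in 63.1% of S100A4-11 and 55.8% of IgG activated cells and Nlrp3 in 71.2% and 65.4%. Shares of Gadd45b in the Cd79a-positive, Csf3r-negative barcodes were 8.95% and 10.9%, and those of Nlrp3 0.97% and 1.07%. Ptgs2, which the rule used, had 1826 CPM in S100A4-11 and 1396 CPM in IgG activated cells.

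**Figure D4:**
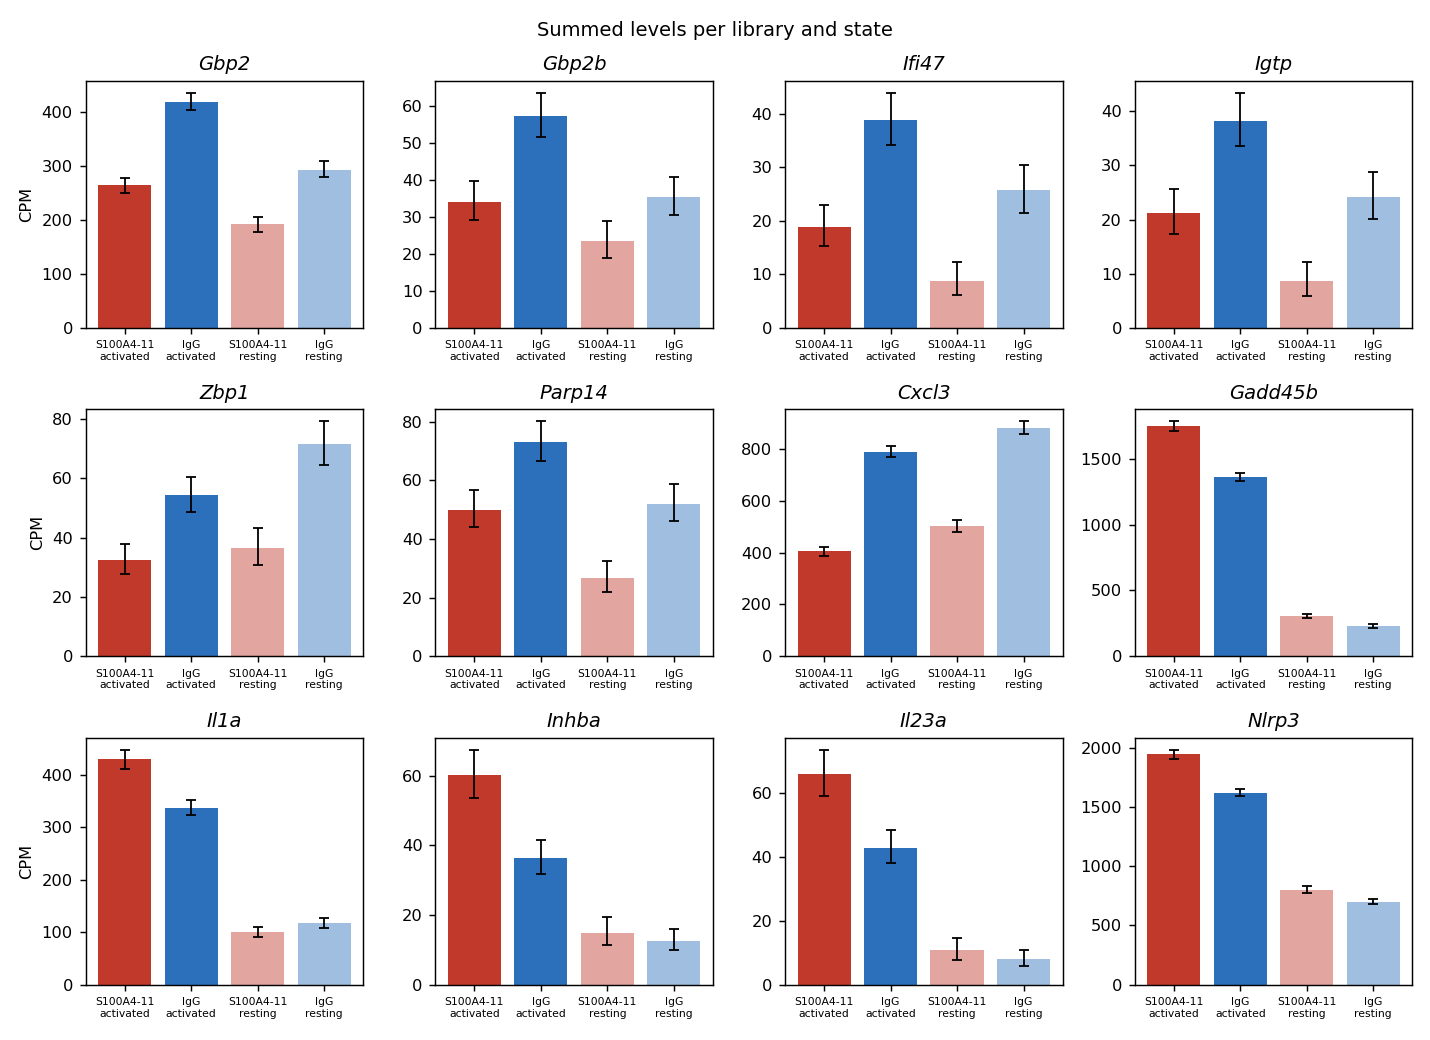
Summed level in CPM (y axes) of 12 genes in activated (full colour) and resting (pale) mature neutrophils of the S100A4-11 (red) and IgG (blue) libraries; bars start at 0 and lines are 95% counting intervals of 1 library each. Gbp2, Gbp2b, Ifi47, Igtp, Zbp1, Parp14 and Cxcl3 are lower in the S100A4-11 library in both states, while Gadd45b, Il23a and Nlrp3 are higher in both.

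Among the genes named as higher in S100A4-11 activated cells, Inhba, a subunit of activin, had 60.3 CPM in the S100A4-11 and 36.4 CPM in the IgG library, a ratio of 1.66 (1.39 to 1.97), with 30.6% and 23.8% of its UMIs in 5 cells of each library. Il23a had a ratio of 1.54 (1.31 to 1.81). Cpne8, a calcium-dependent membrane-binding copine, had 65.3 and 40.2 CPM (ratio 1.62), and Rbm38, an RNA-binding p53 target, 82.9 and 56.3 CPM (ratio 1.47). Simc1, the histone gene Hist2h2ac and Gm20400 had ratios of 1.57, 1.48 and 1.46. For Inmt, Mfap4 and Mt1, 66.1% to 72.0% of the S100A4-11 UMIs lay in 5 cells; without the cells that held other-lineage markers the ratios of Inmt and Mfap4 were 0.811 and 0.606.

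Several of the genes named as lower in S100A4-11 activated cells had much of their counts in few cells. In the IgG library 5 of the 1534 cells held 87.2% of the UMIs of Lyz1 (a lysozyme), 98.4% of those of the matrix proteoglycan gene Dcn, 60.7% of those of the potassium channel gene Kcnq5 and 46.8% of those of the calcium channel gene Cacna1c. Prkg1, Pdzd2, Prex2 and Pde4d had 28.3% to 46.2% of their IgG UMIs in 5 cells, and levels over all other barcodes that were above those in activated cells. Hspa1a (99.8 and 174 CPM) and Hspa1b (104 and 181 CPM), near-identical inducible heat shock genes whose counts cannot be told apart with certainty, had ratios of 0.574 and 0.575, with 35.5% to 50.5% of UMIs in 5 cells. Without the cells that held other-lineage markers the ratio was 0.568 for Lyz1 (0.0626 with all cells), 0.433 for Kcnq5 (0.147), 0.826 for Cacna1c (0.310), 0.915 for Pdzd2 (0.446), 0.740 for Pde4d (0.508) and 1.73 for Dcn (0.447), and that of Hspa1b was 0.341 without doublets. Id3, an inhibitor of basic helix-loop-helix factors, had 90.4 CPM in S100A4-11 and 163 CPM in IgG activated cells. Plin2, a lipid droplet coat protein, had 318 and 474 CPM (ratio 0.670), and 382 and 594 CPM in resting cells.

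**Figure D5:**
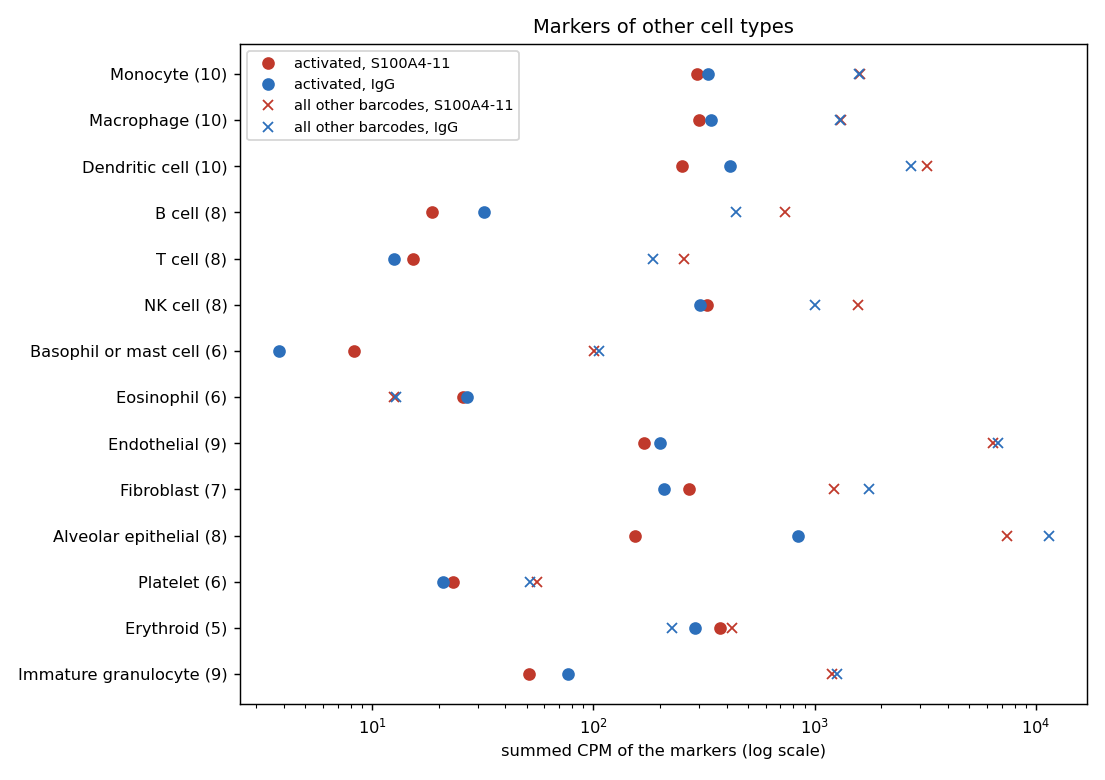
Summed CPM of markers of 14 other cell types (y axis, number of markers in brackets; x axis on a log scale) in activated cells (dots) and in all other barcodes (crosses) of the S100A4-11 (red) and IgG (blue) libraries. Alveolar epithelial markers differ most, with 154 CPM in S100A4-11 and 843 CPM in IgG activated cells.

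Summed markers of other cell types differed between the libraries in both directions. The 8 alveolar epithelial markers summed to 154 CPM in S100A4-11 and 843 CPM in IgG activated cells, none of them at 0, and at least 1 UMI was found in 35.7% and 65.5% of the cells; the 13 cells with most held 14.5% of these UMIs in the S100A4-11 and 62.6% in the IgG library. In all other barcodes the same markers summed to 7431 and 11437 CPM. The 10 dendritic cell markers summed to 250 and 413 CPM, 72.5% and 77.8% of it in the 13 cells with most, with 2 markers at 0 in the S100A4-11 library and 0 in the IgG library. Monocyte markers summed to 293 and 328 CPM, macrophage markers to 299 and 341 CPM (2 of 10 at 0 in each), endothelial markers to 169 and 199 CPM (1 of 9 at 0 in each), and B cell markers to 18.6 and 32.0 CPM. Cdh5, C1qa, Cd79a and Cd3e belong to the endothelial, macrophage, B cell and T cell lists and were 0 by the selection. At least 1 marker at 0 in those lists was therefore fixed in advance, and their sums cannot be set directly against other barcodes. Sums higher in the S100A4-11 library were erythroid (373 and 287 CPM), NK cell (326 and 303 CPM), fibroblast (269 and 208 CPM), platelet (23.2 and 21.0 CPM), T cell (15.3 and 12.6 CPM) and basophil or mast cell markers (8.33 and 3.78 CPM). In that library 13 cells held 95.4% of the erythroid, 97.1% of the NK cell, 87.8% of the fibroblast and 97.6% of the basophil or mast cell UMIs. Erythroid markers were found in 7.22% of S100A4-11 and 5.08% of IgG activated cells. The other shares were lower in the S100A4-11 library: fibroblast 7.15% and 14.4%, NK cell 4.41% and 4.89%, T cell 4.41% and 4.69%. Platelet shares were 4.26% and 4.30%, and basophil or mast cell shares 1.06% and 1.43%. Only the alveolar list had a median above 0, of 1 UMI per IgG activated cell; it was 0 for the other lists of other cell types in both libraries. Apart from the values given without marker-bearing cells, the part of these markers in the library contrast was not tested. Monocyte, macrophage, basophil or mast cell, eosinophil, platelet and erythroid markers did not count towards leaving out a cell, so cells bearing only those were kept.

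S100a4 (chr3:90603771-90606045, plus strand), whose name the antibody label carries, was near background in the members. It had 21.2 CPM (17.4 to 25.6) in S100A4-11 and 38.5 CPM (33.8 to 43.6) in IgG activated cells, with 60.7% and 35.7% of these UMIs in 5 cells of each library. At 1000 UMIs per cell a UMI was found in 0.53% of S100A4-11 and 0.92% of IgG activated cells, against 0.55% and 1.07% of the Cd79a-positive, Csf3r-negative barcodes. All 7 measured genes of the S100 family had ratios under 1 between the libraries in activated cells (4 with TMM or median-of-ratios scaling), with a median log2 ratio of -0.14, and S100a4 was the only one at 1/1.5 or less (0.552, and 0.923 without the cells that held other-lineage markers). Over all genes 1715 of 4041 had ratios above 1. In resting cells the S100 family median was 0.07, with 2 of the genes under 1. The most abundant differed by little: S100a9 by a ratio of 0.993, S100a8 by 0.975 and S100a6 by 0.996.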

How the data were processed

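Single-cell RNA libraries of lung (10x Genomics 5' chemistry, per the labels' protocols) were deposited, per the file headers, as integer matrices of UMI counts for each gene and barcode. The submitters' processing notes name Cell Ranger 7.1.0 and the mm10 build; other settings are not given in the sources used here. Total deposited counts were 64695542 UMIs (S100A4-11) and 85458143 UMIs (IgG).

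The selection rule was applied to the deposited counts. The rule, the 20 gene lists and the 16 marker lists were chosen with earlier results of these data known; some lists share genes. UMIs were summed per library and state and scaled to 1000000 (CPM). Levels had exact Poisson intervals, ratios exact conditional binomial intervals and shares exact binomial (Clopper-Pearson) intervals (SciPy 1.17.1); PCR and animal variation are not in them. Genes entered the counts past 1.5-fold with at least 20 CPM and 50 UMIs; rule genes were left out of those of activated over resting cells. With 1 library per treatment no test was made. Ratio code was tested on simulated data.

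Named genes were, for activated against resting cells, the 20 highest and 12 lowest by the interval bound nearest 1 in the library where it was nearer 1, with at least 50 CPM in both libraries, and, between libraries, the 12 highest and 12 lowest with at least 50 CPM and 50 UMIs and at least 20% of the level in other barcodes. Mitochondrial, ribosomal protein, haemoglobin, receptor variable-segment and rule genes were not named. Up to 4 genes of each list were added. Some named genes are not reported here. Other genes given as examples were chosen after their values were seen.

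No free RNA correction was made. Doublets were called with Scrublet in Scanpy 1.11.5, which marked 4.97% (S100A4-11) and 4.39% (IgG) of barcodes, and removed only in an alternative. TMM factors came from edgeR 4.0.16. Gene positions are from GENCODE M21 (GRCm38) and promoters from RefSeq (GRCm38.p6). Alternatives were other barcode, neutrophil and rule thresholds, doublet removal, thinning, scaling, cell weighting, no filter on low counts and, chosen after seeing the data, removal of cells with 3 or more UMIs of other-lineage markers.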

Additional observations from a re-analysis of the deposited data

Results flagged for a closer look

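For 3 genes the S100A4-11 over IgG ratio pointed one way in activated and the other way in resting mature neutrophils. Inmt, an amine methyltransferase gene, had a ratio of 1.89 in activated and 0.387 in resting cells. Mfap4, an extracellular matrix gene, had ratios of 1.81 and 0.621. Mt1, a metallothionein gene, had ratios of 1.77 and 0.182. The difference between the states was not tested, since each treatment had 1 library. In activated cells of the S100A4-11 library 5 cells held 67.4% of the Inmt, 72.0% of the Mfap4 and 66.1% of the Mt1 UMIs.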

How the results depend on the processing

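The share of activated cells among mature neutrophils was 61.5% (S100A4-11) and 59.1% (IgG) without Marcksl1 in the rule, 64.3% and 61.7% with the rule on thinned cells, 60.9% and 59.0% with S100a8 and S100a9 of at least 5%, and 68.7% and 67.7% without cells bearing other-lineage markers (an alternative chosen after seeing the data); with a difference of at least 3 UMIs the IgG share was 66.6%. Between libraries, genes past 1.5-fold higher numbered 41 (median-of-ratios), 38 (TMM) and 37 (without marker-bearing cells), and lower 43 in that last case. Activated over resting, median-of-ratios gave 205 higher and 263 lower, TMM 229 and 246. Without a filter on low counts the counts were 2884 higher and 5732 lower between libraries, and 2613 and 713 between states, since genes of few UMIs then entered. The median of all genes, activated over resting, was -0.0554 (S100A4-11) and -0.0316 (IgG) with median-of-ratios and -0.00075 and -0.0208 with TMM. The prostaglandin list median in IgG turned to -0.0899 (doublets removed), -0.0517 (median-of-ratios), -0.0408 (TMM) and -0.0124 (marker-bearing cells left out), the lipid list in IgG to -0.0315 (median-of-ratios) and -0.0207 (TMM), chemokines and type I interferon in S100A4-11 to -0.0268 and -0.0094 with median-of-ratios, and the S100 family there to 0.50 without the filter. Between libraries the cell cycle list turned to -0.16 with a difference of at least 3, Dcn to 19.4 without doublets and 1.73 without marker-bearing cells, and Inmt and Mfap4 to 0.811 and 0.606 without marker-bearing cells; the cause was not tested. Under all 12 alternatives the medians of the interferon-gamma (-0.45 to -0.35) and type I interferon lists (-0.29 to -0.13) between libraries stayed negative and that of the NF-kB list (0.09 to 0.19) positive. No paired analysis was possible because each treatment had 1 library. Depth limits shares of cells with a UMI and genes of a few CPM.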

Other observations

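Receptors for microbial products and antibodies were counted in the same way. Of 26 measured pattern recognition and Fc receptor genes, 2 were past 1.5-fold higher and 1 lower in activated cells of both libraries, with medians of 0.06 and 0.07 on the log2 scale. Over all genes 10.1% were higher and 3.27% lower, with medians of 0.16 and 0.15, so the counts of these receptors are near those of all genes. Cd14, the co-receptor for lipopolysaccharide, had 9504 CPM in S100A4-11 and 10192 CPM in IgG activated cells, against 8713 and 9176 CPM in resting cells, and Trem1, an amplifier of myeloid activation, had 3369 and 3337 CPM, against 3592 and 3412 CPM. Clec4n (dectin-2) and Clec4e (Mincle), lectin receptors for fungal and mycobacterial glycans, were the 2 higher genes: Clec4n had 187 and 172 CPM in activated cells, against 35 and 55.5 CPM in resting cells, and Clec4e 3387 and 3069 CPM, against 1983 and 1902 CPM. Treml2 was the lower gene, with 25.2 and 20.2 CPM in activated cells, against 38.7 and 38.6 CPM in resting cells.

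Of 16 measured suppressive effector genes, 3 were past 1.5-fold higher and 2 lower, and of 21 tumour-associated neutrophil genes 6 were higher and 2 lower, beside the same shares of all genes. Cd274, which encodes the checkpoint ligand PD-L1, had 185 CPM in S100A4-11 and 208 CPM in IgG activated cells, against 72.7 and 88.6 CPM in resting cells. Acod1, the itaconate-making enzyme, had 8243 and 8081 CPM in activated cells, against 5206 and 5254 CPM in resting cells. Arg2, the mitochondrial arginase, differed less, with 1296 and 1262 CPM, against 1011 and 923 CPM. Spp1 (osteopontin) was lower in activated cells, at 418 and 349 CPM, against 1070 and 825 CPM. Siglecf, a marker of tumour-promoting neutrophils in mouse lung, was seen at 1000 UMIs per cell in 2.21% and 2.42% of activated cells (7.76% and 8.60% unthinned), against 1.36% and 1.20% of resting cells and 0.0693% and 0.214% of Cd79a-positive, Csf3r-negative barcodes, with counting intervals that overlap between the states.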
